A study of Rattus norvegicus with 18 samples.

Results

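The adrenergic receptors described here are 7 genes, Adra1a, Adra1b, Adra1d, Adra2a, Adra2b, Adra2c and Adrb1, taken by symbol from the 32623 genes measured in the prefrontal cortex (PFC) of 18 rat pups. They were chosen by name and not by their values. RNA-seq was performed on Sprague Dawley pups at postnatal day 14 (P14), with 6 pups in each of 3 groups. The PFC was dissected, so each library holds RNA from every cell type in that piece of tissue.

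Control pups (SAL) were the offspring of dams given saline. Postnatally exposed pups (PNO) were nursed by dams gavaged with oxycodone (oxy), an opioid pain reliever, at 15 mg/kg/day from birth onward, so that exposure was through the milk. In utero exposed pups (IUO) had dams that started on 10 mg/kg/day for 5 days, rose by 0.5 mg/kg/day over 10 days to 15 mg/kg/day, and stayed on oxy through mating, pregnancy and nursing. The IUO pups were therefore exposed both before and after birth, and no group was exposed before birth only. Litter and sex were not given for the pups, so the p-values measure the spread between these pups, some of which may share a dam.

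Adrenergic receptors are G protein-coupled receptors for noradrenaline and adrenaline. The alpha-1 receptors signal through Gq and phospholipase C, the alpha-2 receptors through Gi and Go to lower cAMP and neuronal firing, and the beta receptors through Gs to raise cAMP. In the PFC, noradrenaline arrives in axons from the locus coeruleus in the hindbrain, and postsynaptic alpha-2A receptors are known for their part in working memory while alpha-1 and beta-1 receptors are known for their part in stress and arousal.

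Total expected counts per pup ranged from 18381819 to 26084780, with a median of 22726306. Levels below are in CPM, the expected counts scaled by TMM-normalized library sizes, and in TPM, which is also scaled to gene length, wherever different genes are compared. The PFC label was checked against 10 cortical excitatory neuron markers, all of which were detected, with summed levels of 1282 to 2744 CPM over the 18 pups. Markers of striatal medium spiny neurons, which are not cortical cells, were also present, and their summed level ran from 202 to 1665 CPM in SAL, from 256 to 1419 CPM in PNO and from 446 to 2030 CPM in IUO. A further 4 pups stood apart in some genes of noradrenaline and serotonin neurons, whose cell bodies lie in the brainstem. SAL replicates 2 and 4 and PNO replicates 4 and 6 had 4.45 to 17.8 CPM of Slc6a2, the noradrenaline transporter, against 0 to 0.301 CPM in the other 14 pups. In the same 4 pups Dbh, which makes noradrenaline from dopamine, was at 2.54 to 10.7 CPM against 0.322 to 2.0 CPM, and the midbrain and hindbrain factor En1 was at 1.03 to 5.01 CPM against 0 to 0.246 CPM. Of the serotonin neuron genes, Slc6a4 was at 7.90 to 182 CPM against 0.376 to 5.30 CPM. The ranges overlapped for Tph2, at 6.94 to 104 CPM against 2.20 to 8.43 CPM, and for Th, Ddc and Slc18a2. SAL replicate 2 had the lowest Slc6a4 and Tph2 of the 4 pups, at 7.90 and 6.94 CPM. None of the 6 IUO pups was among the 4, so the receptor fold changes, the correlations and the pathway lists are given with and without these 4 pups. Leaving them out leaves 4 SAL, 4 PNO and 6 IUO pups.

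**Figure D1:**
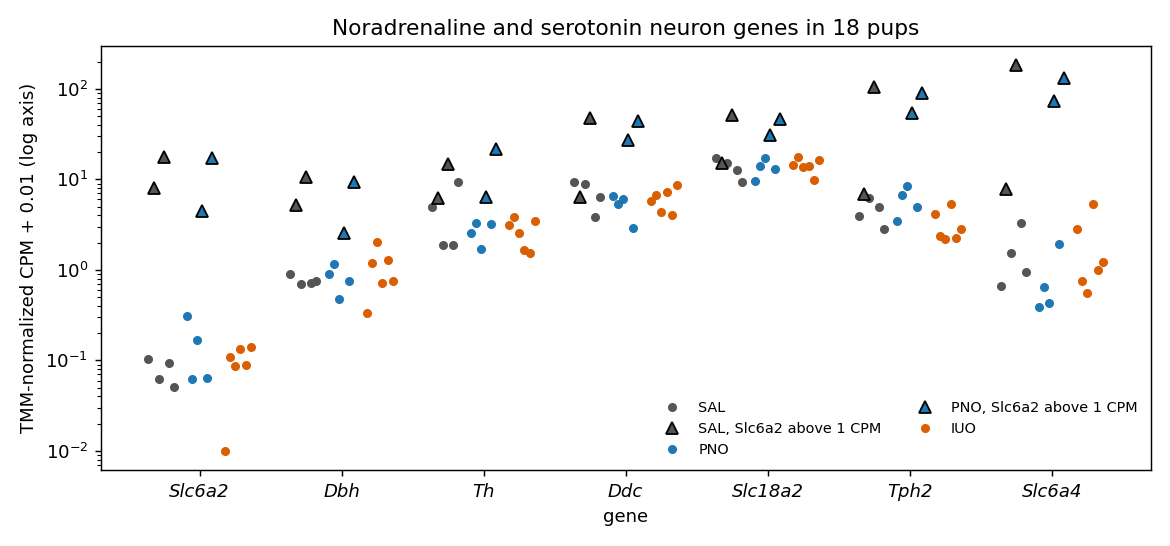
TMM-normalized CPM plus 0.01, on a log axis, of 7 genes of noradrenaline and serotonin neurons, with 1 point per pup and colours for SAL, PNO and IUO. Triangles mark the 4 pups with Slc6a2 above 1 CPM, which lie above the other 14 pups for Slc6a2, Dbh and Slc6a4.

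All 7 receptor genes were detected, with an expected count of at least 1, in all 18 pups, and all 7 passed the filter on low counts. Adra2b failed this filter when only the SAL and PNO pups were used, so it entered the tests through the IUO pups. On the per-length scale, 3 receptors led in the SAL pups. Adra2c had 14.1 ± 7.05 TPM (SD, n = 6), Adra2a had 11.8 ± 2.50 TPM and Adra1d had 10.5 ± 4.70 TPM. Adra1b, at 6.69 ± 0.899 TPM, and Adrb1, at 6.23 ± 2.46 TPM, came next. The lowest levels were those of Adra1a, at 1.37 ± 1.97 TPM, and Adra2b, at 0.280 ± 0.330 TPM. Of the 6 pairs of neighbours in this order, only Adrb1 and Adra1a were in the same order in 6 of 6 pups, with an exact sign-flip permutation p of 0.0312, which is the smallest that 6 pups allow, and 0.188 after Benjamini-Hochberg adjustment over the 6 pairs. The other 5 pairs of neighbours did not differ beyond their spread, with exact permutation p from 0.0938 for Adra1d over Adra1b to 0.688 for Adra2c over Adra2a. The top of the order was not settled from pup to pup. Adra2c was the highest receptor in 2 SAL, 2 PNO and 5 IUO pups, Adra1d in 2, 3 and 1, and Adra2a in 2, 1 and 0. Without SAL replicate 1, which had 27.3 TPM of Adra2c, the order of means was led by Adra2a and Adra1d. Without SAL replicate 4, Adrb1 stood above Adra1b. The TPM of the 7 receptors summed to 51.0 ± 10.9 in SAL, 47.0 ± 7.90 in PNO and 58.5 ± 6.29 in IUO (SD, n = 6 each), which are ranges that overlapped.

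The receptors differed widely in their spread between pups. Adra2a, the receptor with the steadiest level, differed by 1.61-fold between its lowest and highest pup among the 18, and Adra1b by 1.97-fold. Adra1a differed by 111-fold and Adra2b by 34.0-fold, but on few reads, since their expected counts ran from 1 to 132 and from 2 to 57. The biological coefficient of variation fitted by edgeR, which removes counting error and group means, was 0.135 for Adra2a, 0.198 for Adra1b, 0.328 for Adra1d, 0.329 for Adra2c and 0.326 for Adrb1. It was 0.853 for Adra2b and 0.885 for Adra1a, above that of 98.4% and 98.6% of all genes tested.

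**Figure D2:**
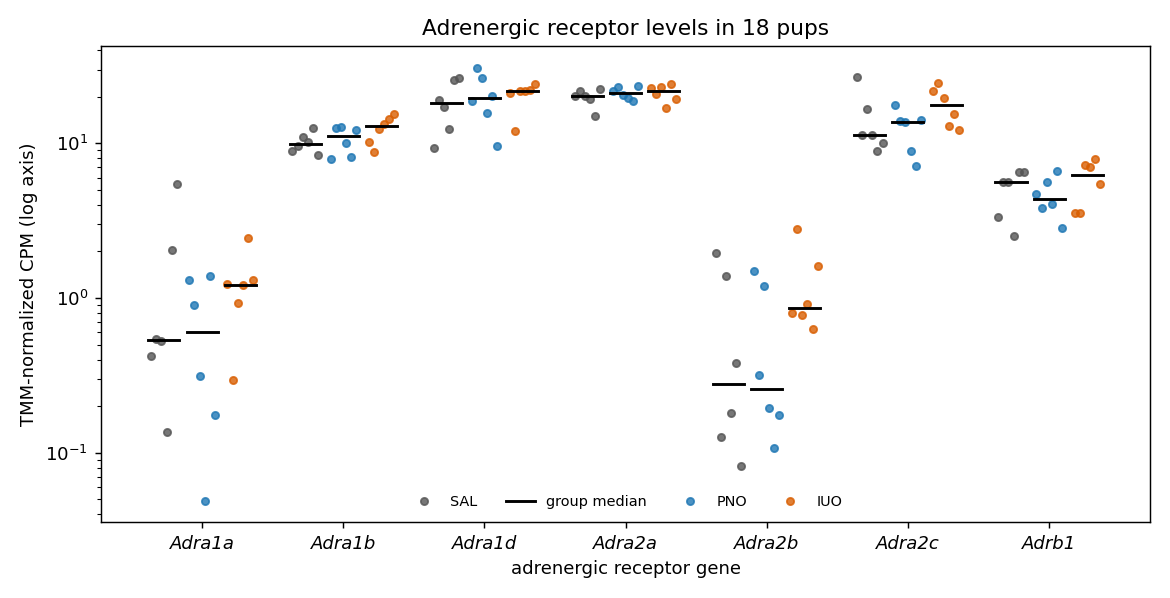
TMM-normalized CPM of each receptor gene on a log axis, with 1 point per pup and a black line at the median of each group of 6. Adra1a and Adra2b are low and spread over more than a factor of 10 between pups, Adra2a lies between 15.1 and 24.3 CPM in every pup, and the 3 groups overlap for all 7 genes.

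Among the alpha-1 receptors, Adra1a varied with single pups. It ran from 0.135 to 5.44 CPM in SAL with a median of 0.537, from 0.0489 to 1.38 CPM in PNO with a median of 0.605, and from 0.295 to 2.44 CPM in IUO with a median of 1.22. The groups overlapped, and the highest value, in SAL replicate 6, was 5.44 CPM where SAL replicate 5 had 2.05 CPM. The log2 fold change of PNO against SAL was -1.14 (95% interval -2.76 to 0.47, edgeR quasi-likelihood adjusted p = 0.912), and without SAL replicate 6 it was -0.11. IUO against SAL was -0.30 (-1.85 to 1.25, edgeR adjusted p = 0.996) and became 0.73 without that pup. IUO against PNO was 0.84 (-0.78 to 2.47, edgeR adjusted p = 0.620). The 4 pups with Slc6a2 held 0.0489 to 0.543 CPM of Adra1a, and without them PNO against SAL was -1.11, IUO against SAL was -0.77 and IUO against PNO was 0.34.

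Adra1b, which also couples to Gq, was higher in IUO by point estimate, with groups that overlapped. Its level was 8.37 to 12.7 CPM in SAL with a median of 9.89, 7.90 to 12.8 CPM in PNO with a median of 11.2, and 8.81 to 15.6 CPM in IUO with a median of 12.9. In IUO, 3 of 6 pups lay above every SAL pup and 3 of 6 above every PNO pup. IUO against SAL was 0.30 on the log2 scale (SE 0.16, 95% interval -0.03 to 0.63, edgeR unadjusted p = 0.0735, adjusted p = 0.783). IUO against PNO was 0.23 (-0.10 to 0.56, edgeR adjusted p = 0.506) and PNO against SAL was 0.07 (-0.26 to 0.40, edgeR adjusted p = 0.944). Without the 4 pups these 3 values were 0.28, 0.27 and 0.01.

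Adra1d, the alpha-1 receptor with the highest level here, was close to level across the groups. SAL pups had 9.28 to 26.6 CPM with a median of 18.2, PNO pups 9.69 to 30.9 CPM with a median of 19.6, and IUO pups 12 to 24.1 CPM with a median of 21.8. The IUO range lay inside the PNO range. PNO against SAL was 0.15 (-0.42 to 0.72, edgeR adjusted p = 0.933), IUO against SAL was 0.16 (-0.41 to 0.73, adjusted p = 0.995) and IUO against PNO was 0.02 (-0.55 to 0.58, adjusted p = 0.983). These intervals still allow a change of up to 1.66-fold in IUO against SAL. The 3 log2 fold changes were 0.29, 0.06 and -0.23 without the 4 pups.

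Among the alpha-2 receptors, Adra2a, which encodes the alpha-2A receptor, had the narrowest limits. Its range was 15.1 to 22.5 CPM in SAL with a median of 20.3, 18.9 to 23.4 CPM in PNO with a median of 21.2, and 17.0 to 24.3 CPM in IUO with a median of 21.9. The groups overlapped over most of their ranges. The log2 fold changes were 0.10 for PNO against SAL (-0.12 to 0.31, edgeR adjusted p = 0.914) and 0.10 for IUO against SAL (-0.12 to 0.31, adjusted p = 0.974). IUO against PNO was -0.0009 (-0.22 to 0.21, edgeR adjusted p = 0.999). The upper limit for IUO against SAL was 1.24-fold, so a change of 1.5-fold in Adra2a lies outside the interval of each comparison. In the same order, they were 0.11, 0.12 and 0.01 without the 4 pups.

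Adra2b was the receptor with the lowest level, and it passed the filter on low counts only through the IUO pups. In SAL it ran from 0.0824 to 1.97 CPM with a median of 0.279, in PNO from 0.107 to 1.5 CPM with a median of 0.256, and in IUO from 0.631 to 2.80 CPM with a median of 0.861. The lowest IUO pup stood above 4 of 6 SAL pups and 4 of 6 PNO pups, and the remaining SAL and PNO pups overlapped with IUO. IUO against SAL was 0.89 (-0.64 to 2.42, edgeR adjusted p = 0.920), IUO against PNO was 1.07 (-0.47 to 2.61, adjusted p = 0.500) and PNO against SAL was -0.18 (-1.77 to 1.41, adjusted p = 0.974). The 4 pups with Slc6a2 had 0.125 to 0.196 CPM of Adra2b, and without them IUO against SAL was 0.41, IUO against PNO was 0.65 and PNO against SAL was -0.24. Without SAL replicate 1, which had the 1.97 CPM, IUO against SAL was 1.58 (edgeR unadjusted p = 0.0503, adjusted p = 0.693). In the same fit PNO against SAL turned to 0.52. Without IUO replicate 2, which had the 2.80 CPM, IUO against SAL was 0.49. Leaving out 1 pup, IUO against PNO ran from 0.66, without IUO replicate 2, to 1.64, without PNO replicate 1.

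Adra2c, whose receptor is known from the striatum as well as the cortex, followed the same direction. The values were 8.93 to 26.8 CPM in SAL with a median of 11.4, 7.14 to 17.6 CPM in PNO with a median of 13.8, and 12.1 to 24.5 CPM in IUO with a median of 17.6. In IUO, 3 of 6 pups lay above every PNO pup, while the highest pup of all was SAL replicate 1. IUO against PNO was 0.50 (SE 0.27, 95% interval -0.07 to 1.07, edgeR unadjusted p = 0.0843, adjusted p = 0.395). IUO against SAL was 0.33 (-0.25 to 0.90, edgeR adjusted p = 0.925) and PNO against SAL was -0.17 (-0.75 to 0.40, edgeR adjusted p = 0.922). Without the 4 pups, IUO against PNO was 0.44, IUO against SAL was 0.19 and PNO against SAL was -0.26. Without SAL replicate 1, IUO against SAL was 0.60 (edgeR unadjusted p = 0.0222, adjusted p = 0.596). In the same fit PNO against SAL turned to 0.11.

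Adrb1, which encodes the beta-1 receptor, had 2.53 to 6.55 CPM in SAL with a median of 5.63, 2.82 to 6.66 CPM in PNO with a median of 4.38, and 3.54 to 7.88 CPM in IUO with a median of 6.24. In IUO, 3 of 6 pups lay above every SAL and every PNO pup, and IUO replicates 1 and 2 lay below the medians of both. IUO against PNO was 0.33 (-0.24 to 0.90, edgeR adjusted p = 0.575), IUO against SAL was 0.20 (-0.36 to 0.77, adjusted p = 0.983) and PNO against SAL was -0.13 (-0.70 to 0.44, adjusted p = 0.942). These were 0.16, 0.07 and -0.09 without the 4 pups.

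Over all 7 receptors, edgeR called 0 in each comparison at an adjusted p under 0.05. The background over the 15703 genes tested was 0% in both comparisons with SAL and 0.0637% in IUO against PNO, so the receptors' counts were at the background. At an unadjusted p under 0.05 edgeR gave 0 receptors in each comparison, where the background was 4.5%, 6.88% and 15.3% of genes (PNO against SAL first and IUO against PNO last). By point estimate alone, 3 of 7 receptors were higher in PNO than in SAL, 6 of 7 in IUO than in SAL and 6 of 7 in IUO than in PNO, beside 50.8%, 48% and 49.9% of all genes, and the comparisons share pups. DESeq2 called 0 receptors at the adjusted threshold and 0 at an unadjusted p under 0.05 in each comparison. With limma-voom, 0 were called at the adjusted threshold both with and without sample quality weights, which count less reliable libraries less. At an unadjusted p under 0.05 the weighted fit gave 1 receptor in IUO against SAL, Adra1b, and 3 in IUO against PNO, Adra1a, Adra2b and Adrb1, where 17.3% and 34% of all genes passed. The fit without weights gave 1 in IUO against SAL, Adra2b, and 0 in IUO against PNO, where 6.78% and 14.8% of all genes passed. For each of the 7 receptors the groups overlapped in each comparison, and groups that did not overlap were found for 0.108%, 0.745% and 1.66% of all genes. Without the 4 pups, edgeR again called 0 receptors in each comparison, as it called 0 of all genes. It gave 0 receptors at an unadjusted p under 0.05, where 5.71%, 4.69% and 10.1% of all genes passed in the same order.

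**Figure D3:**
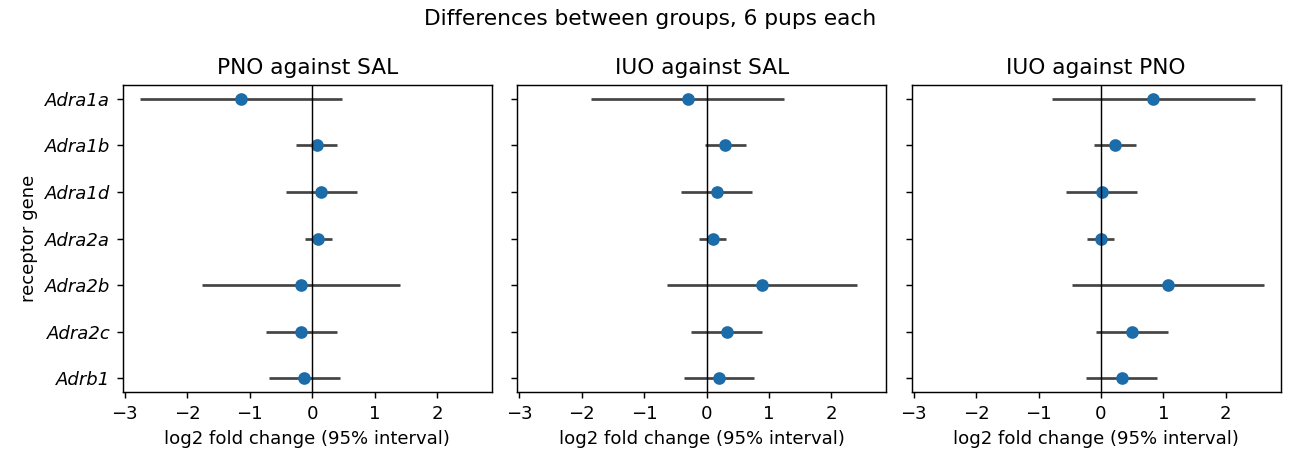
Log2 fold change of each receptor gene (points) with its 95% interval (lines) from edgeR, in 1 panel for each comparison of the 3 groups, with 6 pups per group. Each of the 21 intervals includes 0, and they are narrowest for Adra2a and widest for Adra1a and Adra2b.

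The levels of 5 receptors were related to cell type markers from pup to pup. For each marker list a score was formed as the mean log2 CPM of its genes in a pup, and 77 relations between receptor and score were computed over the 18 pups, of which 5 passed a Benjamini-Hochberg adjusted p of 0.05 by permutation for Pearson r, and none of these was for Adra1b or Adra2a. These relations were looked for after the values had been seen. Adra2b rose with the striatal score, with Pearson r = 0.90 and Spearman rho = 0.88, each with a permutation p of 1e-05, the smallest the permutations can give, and 0.00077 adjusted. Without the 2 pups farthest from the median score r was 0.86, without the 4 pups with Slc6a2 it was 0.85, and within SAL, PNO and IUO it was 1.00, 0.93 and 0.48. Adra2c showed the same relation with r = 0.79 (permutation p = 0.00013, adjusted p = 0.0050) and rho = 0.81 (permutation p = 5e-05, adjusted p = 0.0019). Its r was 0.69 without the 2 farthest pups, 0.80 without the 4 pups, and 0.86, 0.60 and 0.73 within SAL, PNO and IUO. Adra2a did not share it, at r = -0.01 (permutation p = 0.976, adjusted p = 0.988) and rho = 0.01 (permutation p = 0.967), with r = 0.04 without the 4 pups.

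The striatal markers moved in the same direction as Adra2b and Adra2c between groups. All 10 were higher in IUO than in SAL, with a median log2 fold change of 0.50, and all 10 were higher in IUO than in PNO, with a median of 0.84, beside medians of -0.01 and -0.0005 over all genes. None of the 10 passed an unadjusted p under 0.05 in edgeR, where 6.88% and 15.3% of all genes did. The score was 4.12 to 4.26 in the 4 pups with Slc6a2, 3.86 to 6.81 in the other SAL and PNO pups and 5.08 to 7.06 in the IUO pups. Leaving out the 4 pups, 9 of 10 markers were higher in IUO in each of these comparisons, with medians of 0.08 against SAL and 0.52 against PNO. With the striatal score added to the model, IUO against PNO fell to 0.45 for Adra2b (edgeR adjusted p = 0.583) and to 0.16 for Adra2c (edgeR adjusted p = 0.692), from 1.07 and 0.50. In IUO against SAL it was 0.70 for Adra2b (edgeR adjusted p = 0.749) and 0.09 for Adra2c (edgeR adjusted p = 0.948), from 0.89 and 0.33. In a bulk sample, fewer cells of a type and less RNA per cell cannot be told apart.

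Adra1d and Adrb1 instead rose with the cortical excitatory neuron score. For Adra1d r was 0.74 (permutation p = 0.00064, adjusted p = 0.0131) and rho was 0.64 (permutation p = 0.0049, adjusted p = 0.0755), so the rank relation missed the threshold after adjustment. Its r was 0.50 without the 2 farthest pups, 0.63 without the 4 pups, and 0.90, 0.74 and 0.51 within SAL, PNO and IUO. For Adrb1 r was 0.72 (permutation p = 0.00068, adjusted p = 0.0131) and rho was 0.76 (permutation p = 0.00044, adjusted p = 0.0113), with 0.63 in both reduced sets and 0.78, 0.84 and 0.46 within the groups. The cortical markers were higher in IUO than in SAL for 9 of 10 genes with a median of 0.14, while against PNO 7 of 10 were higher, at a median of 0.21. Of all genes, 48% and 49.9% were higher. At an unadjusted p under 0.05 in edgeR, 0 and 2 of the 10 passed, beside 6.88% and 15.3% of all genes. Without the 4 pups, 6 of 10 were higher against SAL (median 0.09) and 7 of 10 against PNO (median 0.13).

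**Figure D4:**
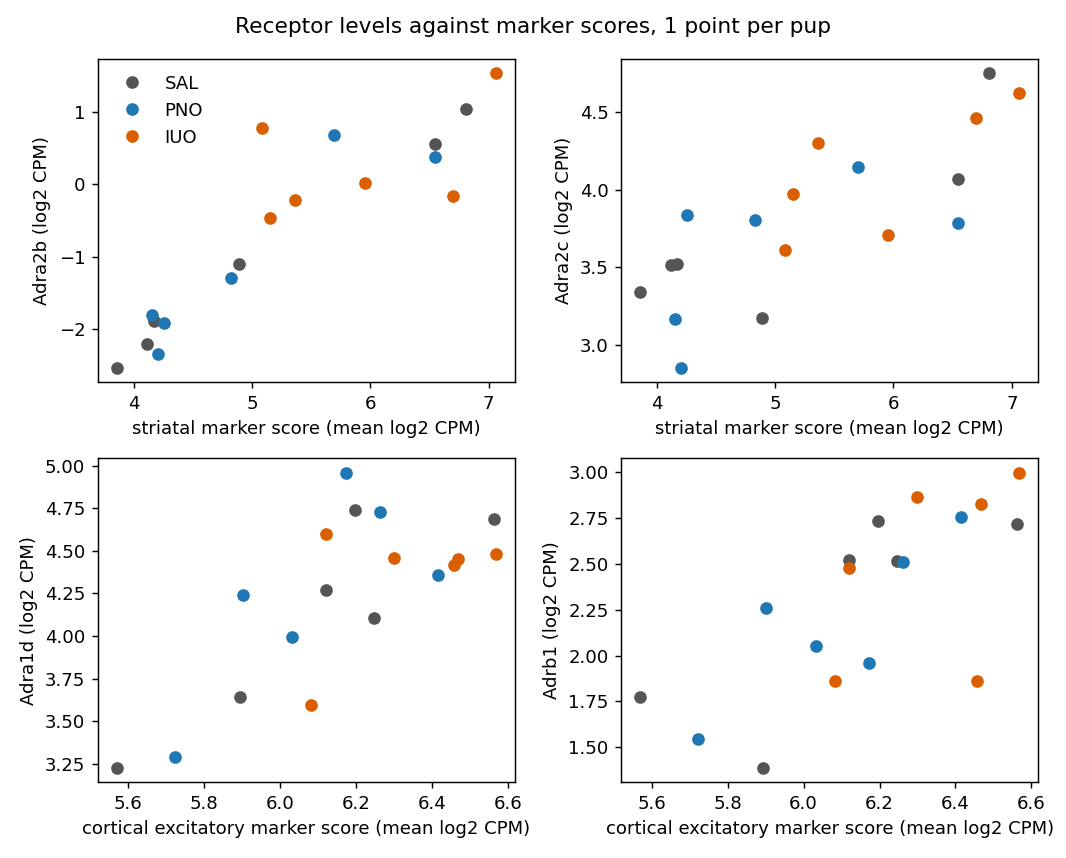
Log2 CPM of Adra2b and Adra2c against the striatal marker score, and of Adra1d and Adrb1 against the cortical excitatory marker score (mean log2 CPM of 10 markers each), with 1 point per pup and colours for SAL, PNO and IUO. Points rise from left to right in all 4 panels, and the correlation is 0.90, 0.79, 0.74 and 0.72.

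Adra1a was lower in pups with more RNA of mature oligodendrocytes, the myelin-forming cells. The correlation was -0.68 (permutation p = 0.00197, adjusted p = 0.0303) and rho was -0.65 (permutation p = 0.00466, adjusted p = 0.0755). It was -0.79 without the 2 farthest pups, -0.61 without the 4 pups, and -0.92, -0.31 and -0.64 within SAL, PNO and IUO. The summed level of the 8 markers, among them the myelin genes Mbp, Mog and Mag, was 1728 to 9313 CPM in SAL, 2928 to 14817 CPM in PNO and 2209 to 5638 CPM in IUO. All 8 were lower in IUO than in PNO, with a median log2 fold change of -1.37, and 8 passed an unadjusted p under 0.05, as did 15.3% of all genes, while 0 passed the adjusted threshold in edgeR. All 8 were higher in PNO than in SAL (median 0.72, 1 at an unadjusted p under 0.05, with 4.5% of all genes) and lower in IUO than in SAL (median -0.60, 0 at that p, with 6.88% of all genes), and 0 passed the adjusted threshold in edgeR in either. The medians without the 4 pups were -1.27 for IUO against PNO, 0.97 for PNO against SAL and -0.32 for IUO against SAL. With this score in the model, IUO against PNO for Adra1a was -0.69 in place of 0.84, and Adra2b and Adra2c stood at 3.06 (edgeR unadjusted p = 0.0043, adjusted p = 0.306) and 1.02 (edgeR unadjusted p = 0.0040, adjusted p = 0.300). In IUO against SAL they stood at 1.72 (edgeR unadjusted p = 0.0220, adjusted p = 0.565) and 0.55 (edgeR unadjusted p = 0.0414, adjusted p = 0.655). Of all genes, 9.27% passed an unadjusted p under 0.05 with this score in IUO against PNO and 7.32% in IUO against SAL. The score was 7.12 to 9.45 in PNO and 6.63 to 7.98 in IUO, and only PNO replicate 5 fell inside the IUO range. The IUO against PNO values with this score thus rest on little overlap, and the model cannot separate score from group well. The direction of Adra1a and the size of the Adra2b and Adra2c differences changed with the tissue markers held in the model.

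Among the 21 pairs of receptors, 4 were correlated over the 18 pups at an adjusted p under 0.05. The alpha-2 pair Adra2b and Adra2c had r = 0.75 (permutation p = 0.00031, adjusted p = 0.0065) and rho = 0.70 (permutation p = 0.00133, adjusted p = 0.0279), with 0.68 without the 2 farthest pups, 0.76 without the 4 pups, and 0.85, 0.73 and 0.23 within SAL, PNO and IUO. The other three joined Adra1a, Adra1d and Adrb1. Adra1d and Adrb1 had r = 0.67 (permutation p = 0.00226, adjusted p = 0.0167) and rho = 0.56 (permutation p = 0.0177, adjusted p = 0.0929), with 0.54 without the 2 farthest pups, 0.50 without the 4 pups, and 0.87, 0.56 and 0.61 within the groups. Adra1a had r = 0.67 with Adrb1 (permutation p = 0.00238, adjusted p = 0.0167, rho = 0.66 with permutation p = 0.00384) and r = 0.65 with Adra1d (permutation p = 0.00332, adjusted p = 0.0174, rho = 0.63 with permutation p = 0.00664). Without the 2 farthest pups these were 0.72 and 0.68, without the 4 pups 0.54 and 0.53, and within SAL, PNO and IUO 0.80, 0.51 and 0.63 for Adrb1 and 0.81, 0.50 and 0.87 for Adra1d. No pair with Adra1b or Adra2a passed the threshold.

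The 250 bases before the start of the genes of 2 such pairs are shown, because their members moved together. They come from RefSeq on the rat build GRCr8 and are written 5′ to 3′ on the strand of the gene, with the GC box GGGCGG, the letters bound by Sp1-type factors, and its reverse complement CCGCCC in capitals. RefSeq sequences were matched for 6 of 7 receptors, without Adra1a.
Adra2b, chr3:135038231-135038480, plus strand: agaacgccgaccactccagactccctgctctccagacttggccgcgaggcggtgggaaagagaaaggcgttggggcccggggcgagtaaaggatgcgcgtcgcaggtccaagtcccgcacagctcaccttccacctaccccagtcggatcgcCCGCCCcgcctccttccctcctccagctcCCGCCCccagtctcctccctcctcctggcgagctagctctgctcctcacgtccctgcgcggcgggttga
Adra2c, chr14:79697477-79697726, minus strand: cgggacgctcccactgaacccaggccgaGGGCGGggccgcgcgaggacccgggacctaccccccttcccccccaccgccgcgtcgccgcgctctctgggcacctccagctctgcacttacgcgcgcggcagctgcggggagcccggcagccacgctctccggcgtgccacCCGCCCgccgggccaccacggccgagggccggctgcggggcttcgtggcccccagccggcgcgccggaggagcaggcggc
Adra1d, chr3:139262332-139262581, minus strand: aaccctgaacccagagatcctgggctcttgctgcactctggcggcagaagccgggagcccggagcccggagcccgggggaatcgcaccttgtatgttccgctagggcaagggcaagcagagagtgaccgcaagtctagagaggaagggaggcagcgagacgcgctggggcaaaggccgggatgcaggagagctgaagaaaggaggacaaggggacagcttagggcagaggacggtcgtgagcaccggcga
Adrb1, chr1:265776853-265777102, plus strand: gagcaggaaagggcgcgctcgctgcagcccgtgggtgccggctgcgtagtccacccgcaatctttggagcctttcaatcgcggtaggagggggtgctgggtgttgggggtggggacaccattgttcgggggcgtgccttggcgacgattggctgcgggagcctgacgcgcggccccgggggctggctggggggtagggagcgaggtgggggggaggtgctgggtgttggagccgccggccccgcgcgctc

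Adra2b and Adra2c each held 2 GC boxes in this window, on either strand, and Adra1b, Adra1d, Adra2a and Adrb1 held 0. Over 33469 rat promoters of the same length, 30.5% held at least 1. The letters TGACGT, a part of the cAMP response element, were searched on both strands and were found in 0 of the 6 windows and in 6.95% of all promoters. The TATA box letters TATAAA were likewise found in 0 of 6 and in 12.9% of all. The GC content ranged from 64.0% for Adra1d to 80.4% for Adra2c, where the median promoter had 51.2%, and that of Adra2c was above 99.0% of promoters. These matches describe the letters only.

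For each receptor the 3 genes with the most similar pattern were taken by Pearson r of log2 CPM over the 18 pups, out of 15702 genes compared. Adra2b was closest to Isl1 (r = 0.96), Lhx8 (0.95) and Nkx2-1 (0.95), all transcription factors of ventral forebrain and cholinergic neurons. Isl1 ran from 0 to 17.6 CPM and Lhx8 from 0 to 14.7 CPM. Adra2c was closest to Slc26a10 (0.90), Entpd3 (0.89), an ectonucleotidase, and Ppp1r2 (0.88), an inhibitor of protein phosphatase 1. Adrb1 was closest to Camkk2 (0.95), a calcium-dependent kinase, Itpk1 (0.92), an inositol phosphate kinase, and Dtx4 (0.91). Adra1a was closest to Med14 (0.92), a Mediator subunit, Bsn (0.92), the presynaptic scaffold bassoon, and Gramd1b (0.91), a sterol transfer protein. Adra1d was closest to Exph5 (0.90), Ttc7b (0.90) and St8sia5 (0.88), a sialyltransferase for gangliosides. Adra1b was closest to Rac2 (0.85), Fech (0.83), the last enzyme of haem synthesis, and Arhgdia (0.81). Adra2a had the weakest matches, Fas (0.75), Tgfb2 (0.74) and Cybb (0.71). Over the 14 pups without the 4 with Slc6a2, r was 0.93 to 0.95 for the 3 genes of Adra2b, 0.87 to 0.91 for those of Adra2c, 0.89 to 0.94 for Adrb1, 0.86 to 0.88 for Adra1a, 0.86 to 0.89 for Adra1d, 0.84 to 0.86 for Adra1b and 0.73 to 0.80 for Adra2a.

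The genes that supply noradrenaline and pass on the receptor signal were described from 5 lists, and none of their members passed the adjusted threshold in edgeR in any comparison. Of the 10 genes of noradrenaline supply and breakdown, 8 passed the filter, without Slc6a2 and Pnmt. In this list 6 of 8 were lower in IUO than in SAL (median -0.27) and 7 of 8 were lower in IUO than in PNO (median -0.37), with 1 and 0 at an unadjusted p under 0.05, and 5 of 8 were higher in PNO than in SAL (median 0.04, 0 at that p). Of all genes, 6.88%, 15.3% and 4.5% passed that p in these comparisons. Th, which makes the dopamine precursor, had 6.52 ± 4.96 CPM in SAL, 6.43 ± 7.59 CPM in PNO and 2.69 ± 0.946 CPM in IUO (SD, n = 6), and its log2 fold change was -1.28 for IUO against SAL (edgeR unadjusted p = 0.0473, adjusted p = 0.713) and -1.26 for IUO against PNO (edgeR unadjusted p = 0.050, adjusted p = 0.327). The 4 pups with Slc6a2 held 6.19 to 21.6 CPM of Th and the other 14 held 1.54 to 9.40 CPM. Leaving out the 4 pups, Th was at -0.75 against SAL (edgeR adjusted p = 0.999) and 0.01 against PNO (edgeR adjusted p = 0.993). Of the 8 genes of the list, 6 were then higher in IUO than in PNO (median 0.06), 5 were lower in IUO than in SAL (median -0.05) and 6 were lower in PNO than in SAL (median -0.06).

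In the Gq list for the alpha-1 receptors, 9 of 12 genes were lower in PNO than in SAL (median -0.09), 7 of 12 were higher in IUO than in SAL (median 0.05), and 9 of 12 were higher in IUO than in PNO (median 0.16). Plcb4, a phospholipase C, was at -0.16 for IUO against SAL (edgeR unadjusted p = 0.125). In the Gi list for the alpha-2 receptors, 8 of 12 genes were higher in IUO than in PNO (median 0.14), 6 of 12 were higher in IUO than in SAL (median -0.01) and 9 of 12 were lower in PNO than in SAL (median -0.06). Gnai2, a Gi alpha subunit, was at 251 ± 19.2 CPM in IUO and 223 ± 13.5 CPM in PNO, a difference of 0.17 (edgeR unadjusted p = 0.0155, adjusted p = 0.222). Hcn2, a pacemaker channel gated by cAMP, was at 0.17 for IUO against SAL (edgeR unadjusted p = 0.114), and Rgs7, which shortens Gi and Go signals, was at 0.16 for PNO against SAL (edgeR unadjusted p = 0.0940).

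The Gs list for the beta receptor had 18 gene identifiers for 17 symbols, of which 14 were higher in IUO than in PNO (median 0.18), 11 were higher in IUO than in SAL (median 0.02) and 13 were lower in PNO than in SAL (median -0.09). Prkar2b, a regulatory subunit of protein kinase A, was at 256 ± 19.4 CPM in IUO, 211 ± 34.6 CPM in PNO and 220 ± 28.5 CPM in SAL. Its log2 fold change was 0.28 for IUO against PNO (edgeR unadjusted p = 0.0130, adjusted p = 0.208) and 0.22 for IUO against SAL (edgeR unadjusted p = 0.0456, adjusted p = 0.713). Pde4a, which breaks down cAMP, was at -0.24 for PNO against SAL (edgeR unadjusted p = 0.0586). Among the 7 receptor kinases, arrestins and their partner spinophilin, 6 were higher in IUO than in PNO (median 0.13), 5 were higher in IUO than in SAL (median 0.09) and 6 were lower in PNO than in SAL (median -0.11). The smallest p in each comparison was that of Grk5 at 0.30 for IUO against PNO (edgeR unadjusted p = 0.0850), Ppp1r9b, which encodes spinophilin, at 0.12 for IUO against SAL (edgeR unadjusted p = 0.175) and Grk6 at -0.11 for PNO against SAL (edgeR unadjusted p = 0.0701). Leaving out the 4 pups with Slc6a2, none of the genes of the 5 lists passed the adjusted threshold in edgeR. The medians for IUO against PNO were then 0.06 for Gq, 0.11 for Gi, 0.08 for Gs and 0.09 for kinases and arrestins. Those for IUO against SAL were -0.07, -0.03, -0.04 and 0.02, so that the Gq and Gs medians turned from above to below 0, and those for PNO against SAL were -0.12, -0.10, -0.13 and -0.13.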

How the data were processed

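Per the labels, total RNA from the PFC of 18 pups was sequenced, and the titles gave the group and number of each pup. The authors deposited 1 table per pup with expected counts, TPM and FPKM for 32623 genes and a gene length. The expected count is an estimate that shares reads matching several genes and is not normalized, while the authors scaled TPM and FPKM by length and library. The aligner, counting program and genome build are not given in the sources used here. The expected counts of the 7 receptors were whole in all pups, so rounding changed none of them. Counts were rounded and tested over all genes with edgeR 4.0.16 in R 4.3.3 (TMM, filterByExpr by group, glmQLFit and glmQLFTest, 1 model of 18 pups, two-sided), with Benjamini-Hochberg adjustment over the 15703 genes tested and calls at an adjusted p under 0.05. DESeq2 1.42.0 and limma 3.58.1 (voom, with sample quality weights and, added later, without) were alternatives. Intervals are 95% intervals from the same model. Permutation p-values of correlations used 100000 permutations of log2 CPM with a prior count of 2. TPM served only for levels between genes, and FPKM for a repeat of their order. The scripts were tested on simulated data.

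The members and lists were chosen with earlier results of these data known. The genes named were all 7 receptors, the gene with the smallest unadjusted p of each pathway list in each comparison (none passed the adjusted threshold, and some are not reported here), and the 3 genes most similar to each receptor. Slc6a2, Dbh, En1, Slc6a4 and Tph2 were singled out after their values were seen, and Ddc and Slc18a2 are named beside them. The marker lists covered cortical excitatory neurons, interneurons, astrocytes, oligodendrocyte precursors, mature oligodendrocytes, microglia, endothelial and mural cells, meningeal fibroblasts, striatal neurons, thalamic neurons and choroid plexus, and the relations not described in the results missed the adjusted threshold.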

Additional observations from a re-analysis of the deposited data

Results flagged for a closer look

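Single pups stood apart from the rest of their group in 2 of the 21 sets of 6 values (7 receptors in 3 groups) by Dixon's test at the 95% level, where chance gives about 1 in 20. Adra1d in IUO replicate 2 was at 3.6 log2 CPM and the next lowest IUO pup was at 4.41, a gap of 0.817 of the range of the group against a critical value of 0.625. The same pup had the highest Adra2b of the 18, at 2.80 CPM, and the highest striatal score, at 7.06. Adra2a in SAL replicate 5 was at 3.93 log2 CPM and the next lowest SAL pup was at 4.29, a gap of 0.637 of the range.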

How the results depend on the processing

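Each of the 78 counts of receptors called, over the main fit and the other settings, was 0. Of 524 receptor fold changes recomputed, 482 kept their direction and side of the threshold, 39 reversed, 0 passed the threshold and 3 moved by more than the spread between pups. The smallest adjusted p of any setting was 0.051, for Adra1a in IUO against PNO when limma-voom weighted the libraries by quality. The cause of the reversals was not tested. The settings with the 4 Slc6a2 pups left out, a marker score in the model or limma-voom without weights were chosen after seeing the data.

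Without library size normalization, Adra1b in PNO against SAL was -0.024 and Adra2a in IUO against PNO was 0.11. The median of all genes was shifted to -0.080 and 0.11 in these comparisons, so that Adra1b still lay above it and Adra2a close to it. With limma-voom and sample weights, IUO against SAL was 0.88 for Adra1a and -0.014 for Adra2a, and IUO against PNO moved to 2.13 for Adra1a and 1.73 for Adra2b. With limma-voom without weights, Adra2b in PNO against SAL was 0.12, and IUO against SAL was 0.42 for Adra1a and 1.55 for Adra2b. Without the 4 pups, IUO against PNO was -0.23 for Adra1d and 0.013 for Adra2a. With the striatal score, Adra2b in PNO against SAL was 0.25, Adra1a in IUO against SAL was 0.33 and Adra2a in IUO against PNO was 0.010. With the mature oligodendrocyte score, PNO against SAL was 0.26 for Adra1a, -1.34 for Adra2b and 0.13 for Adrb1, IUO against SAL was -0.028 for Adrb1, and IUO against PNO was -0.69 for Adra1a, -0.35 for Adra1d, 0.014 for Adra2a and -0.16 for Adrb1. When counts more than 1 SD from their group mean were left out gene by gene, without normalization and with no test, Adra1a in IUO against SAL was 0.66, Adra1b moved to 0.69 in IUO against SAL and 0.60 in IUO against PNO, and Adrb1 to 0.87 in IUO against PNO.

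Leaving out each pup in turn, fold changes that changed sign ran from -0.75 to 0.52 for Adra2b, -0.29 to 0.11 for Adra2c and -0.013 to 0.29 for Adra1d in PNO against SAL, from -0.63 to 0.73 for Adra1a in IUO against SAL, and from -0.13 to 0.17 for Adra1d and -0.050 to 0.057 for Adra2a in IUO against PNO. Adra2b in IUO against SAL kept its sign, at 0.49 to 1.58. The number of receptors at their rank in the SAL order ran from 4 to 7 of 7.

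The labels do not say whether replicate numbers pair the pups. Same-numbered pups correlated over 0.1 in 4 of 6 pairs for PNO and SAL (mean r = 0.23). This held for 1 of 6 for IUO and SAL (mean r = -0.03) and 3 of 6 for IUO and PNO (mean r = 0.06). Of the 18 pups, 7 correlated best with their own number. Litter was not given, so a litter shared by number could not be checked. With the replicate block 0 receptors were called, Adra1a in IUO against SAL was 0.23, and Adra2a in IUO against PNO was 0.0027. Adra2b moved to 1.53 in IUO against SAL and 1.72 in IUO against PNO (edgeR unadjusted p = 0.0460 and 0.0273, adjusted p = 0.655 and 0.248), and Adra2c was at 0.39 and 0.52 (edgeR unadjusted p = 0.0472 and 0.0114, adjusted p = 0.660 and 0.187). Of all genes, 7.44% and 16.5% passed an unadjusted p under 0.05 in these 2 comparisons with the block. Adra2b was not tested for PNO against SAL when only those 12 pups were used, since it failed the filter there.

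Over all genes, IUO against PNO gave 10 calls with edgeR, 436 with DESeq2, 10 with limma-voom without weights and 2028 with sample quality weights, 72 with only the 12 pups, 0 without library size normalization, 0 without the 4 pups, 6 with the replicate block, and 26 and 2 with the striatal and mature oligodendrocyte scores, and IUO against SAL gave 0 with edgeR, 49 with DESeq2, 0 with limma-voom and 43 with its sample quality weights. Leaving out 1 pup, edgeR gave between 1 and 95 in IUO against PNO. The intervals of Adra1a and Adra2b, whose biological coefficients of variation between pups were 0.885 and 0.853 against 0.417 and 0.425 for the trend at their level, allow changes in IUO against PNO of up to 5.52-fold and 6.10-fold.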

Other observations

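Other cell type markers also differed between the groups by point estimate. All 6 choroid plexus markers were lower in IUO than in SAL (median log2 fold change -0.61) and lower in IUO than in PNO (median -1.26), with 0 at an unadjusted p under 0.05 in edgeR, which 6.88% and 15.3% of all genes passed, and summed levels of 3.94 to 544 CPM in SAL, 4.95 to 971 CPM in PNO and 2.60 to 254 CPM in IUO. Without the 4 pups with Slc6a2, all 5 choroid plexus markers tested were lower in both comparisons, with medians of -1.04 and -1.64. Adra2b had r = 0.57 with this score over the 18 pups (permutation p = 0.0154, adjusted p = 0.148) and rho = 0.57 (permutation p = 0.0152), with 0.61 without the 2 farthest pups, 0.60 without the 4 pups with Slc6a2, and 0.73, 0.96 and 0.62 within SAL, PNO and IUO. Between IUO and PNO, 6 of 8 astrocyte markers were lower (median -0.25, 4 at an unadjusted p under 0.05) and 6 of 6 oligodendrocyte precursor markers were lower (median -0.22, 2 at that p), where 15.3% of all genes passed that p. The medians for the same comparison were -0.14 for interneuron markers (1 of 7 past the adjusted threshold, lower in IUO, beside 0.0637% of all genes, and 0 of 7 without the 4 pups), 0.02 for microglia, -0.10 for endothelial and mural cells, 0.22 for meningeal fibroblasts and -0.38 for thalamic neurons, with no gene of these 4 lists past the adjusted threshold in edgeR. Without the 4 pups the thalamic median turned to 0.04. The other medians were then -0.30 for astrocytes, -0.32 for oligodendrocyte precursors and -0.12 for interneurons. Those for microglia, endothelial and mural cells, and meningeal fibroblasts were 0.03, -0.05 and 0.32.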
